A study of Mus musculus with 8 samples.

Results

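The genes described are 10 that encode secreted matrix glycoproteins (*Fn1*, *Spp1*, *Vcan*, *Ecm1* and *Tgfbi*), the membrane glycoprotein *Gpnmb*, the hyaluronan receptor *Cd44* and the syndecans *Sdc1*, *Sdc3* and *Sdc4*. They were chosen by name from the 53819 genes of the table, with earlier results of these data known, and each symbol stood for 1 gene. Bone marrow-derived macrophages (BMDM) came from 4 female Balb/CJ mice aged 8 weeks. Marrow cells became macrophages over 5 days in the growth factor M-CSF, at 25 ng/mL, and were then given 2.5 µM unconjugated bilirubin or its vehicle, DMSO, for 48 h. Each mouse gave 1 culture of each kind, so the 8 libraries of poly-A RNA form 4 pairs. All cultures shared the strain, the sex and M-CSF, and no group without M-CSF was compared. The comparison asks how bilirubin, the end product of heme breakdown, changed the RNA of these genes in macrophages.

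Macrophages both make and read the matrix around them. Fibronectin, osteopontin and related proteins hold cells through integrins, versican and hyaluronan form a hydrated gel that CD44 binds, and syndecans carry heparan sulfate chains that hold growth factors, chemokines and matrix proteins at the cell surface. Syndecans and CD44 are cut by surface proteases, which releases their outer part. Osteopontin and GPNMB are known products of macrophages in injured tissue and tumors, and syndecan-1 and syndecan-4 are known to change with inflammatory stimuli.

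Of the 10 genes, 5 were upregulated with bilirubin (*Vcan*, *Sdc1*, *Sdc4*, *Tgfbi* and *Ecm1*), 1 was downregulated (*Spp1*) and 4 did not pass the test (*Cd44*, *Sdc3*, *Gpnmb* and *Fn1*). *Vcan* rose 4.80-fold and *Sdc1* 3.06-fold, while *Spp1*, among the most abundant of these RNAs, fell to 0.660 of its vehicle level. Genes were tested by the quasi-likelihood method of edgeR in a model holding both mouse and treatment. A gene passed when its p, after Benjamini-Hochberg adjustment across all 13722 genes with enough counts, was under 0.05. All 10 genes had enough counts. Across all tested genes 7.53% passed, 4.49% as higher and 3.04% as lower. CPM values (counts scaled to the size of the library by edgeR's TMM method) did not overlap between the groups for 6 of the 10 genes, against 10.6% of all tested genes. The median log2 fold change was 0.22 for the 10 genes and -0.0018 for all tested genes. The median size of the change, without its sign, was 0.30 and 0.089. The 10 genes were chosen with earlier results of these data known, so these contrasts do not test them as a set.

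**Figure D1:**
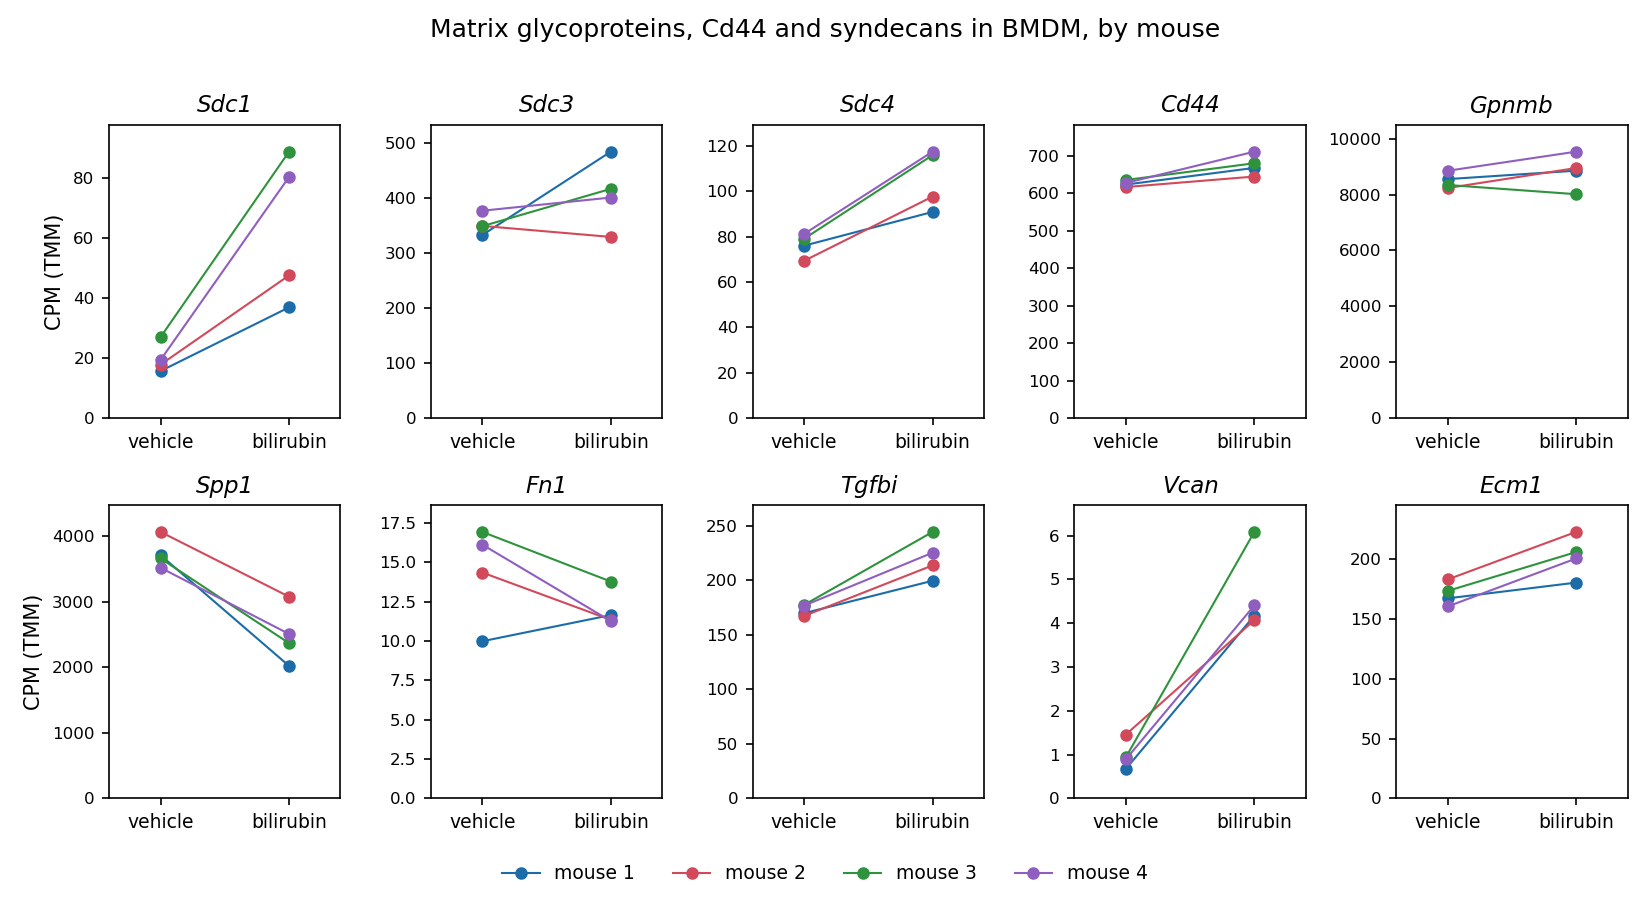
CPM (y axis, from 0) of the 10 genes in the vehicle and bilirubin cultures (x axis), 1 point per library and 1 line and colour per mouse. *Sdc1*, *Sdc4*, *Tgfbi*, *Vcan*, *Ecm1* and *Cd44* rise along all 4 lines and *Spp1* falls along all 4, while *Fn1*, *Gpnmb* and *Sdc3* have 1 line that goes the other way.

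The libraries held 37747315 to 47071714 counts on genes with vehicle and 34142781 to 41054034 with bilirubin. The macrophage markers were all detected, at levels far apart. *Lyz2* rose from 19145 to 24369 mean CPM, *Adgre1* from 517 to 692 and *Itgam* from 849 to 1018, while *Csf1r* (1494 and 1490.5 mean CPM), *Cd68* (1861 and 1664), *Mertk* (65.6 and 59.3) and *Fcgr1* (54.5 and 47.6) did not pass the test. Genes of several other cells were near 0. The B cell genes *Cd79a*, *Ms4a1*, *Pax5* and *Jchain* each averaged at most 0.0213 CPM in a group. The 5 mast cell and basophil markers summed to at most 0.168 CPM in any library, the 6 dendritic cell markers to at most 0.622 CPM and the 7 T and NK cell markers to at most 1.24 CPM. The megakaryocyte gene *Pf4* fell from 56.2 to 38.8 mean CPM, and the erythroid genes *Hbb-bs*, *Hba-a1* and *Klf1* each averaged at most 0.0519 CPM in a group. These are bulk libraries, so fewer cells of a type and less RNA per cell cannot be told apart.

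Among the syndecans, *Sdc1* and *Sdc4* rose by edgeR's test and *Sdc3* did not pass it, and the difference between them was not tested. Syndecan-1, encoded by *Sdc1* (chr12:8820854-8843725, plus strand, GRCm39), is a heparan sulfate proteoglycan best known on epithelial and plasma cells and inducible in macrophages. In mice 1 to 4, *Sdc1* stood at 15.7, 17.8, 26.9 and 19.4 CPM with vehicle and at 36.8, 47.4, 88.6 and 80.2 CPM with bilirubin. The lowest bilirubin value lay above the highest vehicle value, and the cultures of mice 3 and 4 reached about the same level while those of mice 1 and 2 stayed lower. The log2 fold change was 1.61 (SE 0.117, 95% interval 1.35 to 1.88) and the adjusted p of edgeR's test was 1.65e-04. By mouse it ran from 1.23 to 2.05. *Sdc1* also marks plasma cells, and *Jchain*, a plasma cell gene, was at 0 in all vehicle libraries and averaged 0.0131 CPM with bilirubin.

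Syndecan-4, encoded by *Sdc4* (chr2:164266025-164285807, minus strand), sits at focal adhesions and binds protein kinase C alpha. *Sdc4* read 76.1, 69.4, 79.1 and 81.2 CPM with vehicle and 91.0, 97.7, 116 and 118 CPM with bilirubin, again without overlap and again highest in mice 3 and 4. Its log2 fold change of 0.46 (SE 0.0527) passed edgeR's test with an adjusted p of 0.00148. Syndecan-3, encoded by *Sdc3* (chr4:130519826-130556217, plus strand), was the most abundant syndecan. *Sdc3* read 333, 349, 349 and 377 CPM with vehicle and 484, 329, 417 and 401 CPM with bilirubin. The values overlapped, since the culture of mouse 1 was the highest and that of mouse 2 lay below all the vehicle cultures. The log2 fold change of 0.20 (SE 0.0860, 95% interval 0.0034 to 0.40) had an adjusted p of 0.233 in edgeR's test, so a rise of up to 0.40 lay within the interval.

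Between genes, levels can be compared only per length, so the deposited TPM (transcript abundance scaled for transcript length and depth) were summed per gene. The 4 syndecans together held 203 to 225 TPM with vehicle and 218 to 301 TPM with bilirubin. *Sdc3* made up 69.0% ± 1.99 (SD, n = 4) of that sum with vehicle and 60.4% ± 6.59 with bilirubin. *Sdc1* made up 5.88% ± 1.22 with vehicle and 13.7% ± 4.34 with bilirubin, and its lowest share with bilirubin, 7.84% in mouse 1, was just above its highest with vehicle, 7.70% in mouse 3. The share of *Sdc4* was 24.5% ± 1.34 and 25.6% ± 3.07. *Sdc2*, the remaining family member, held under 1% in every library, with at most 0.733%. The ratio of *Sdc1* to *Sdc3* was higher with bilirubin in each mouse, but *Sdc3* stayed the largest syndecan RNA in all 8 libraries.

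**Figure D2:**
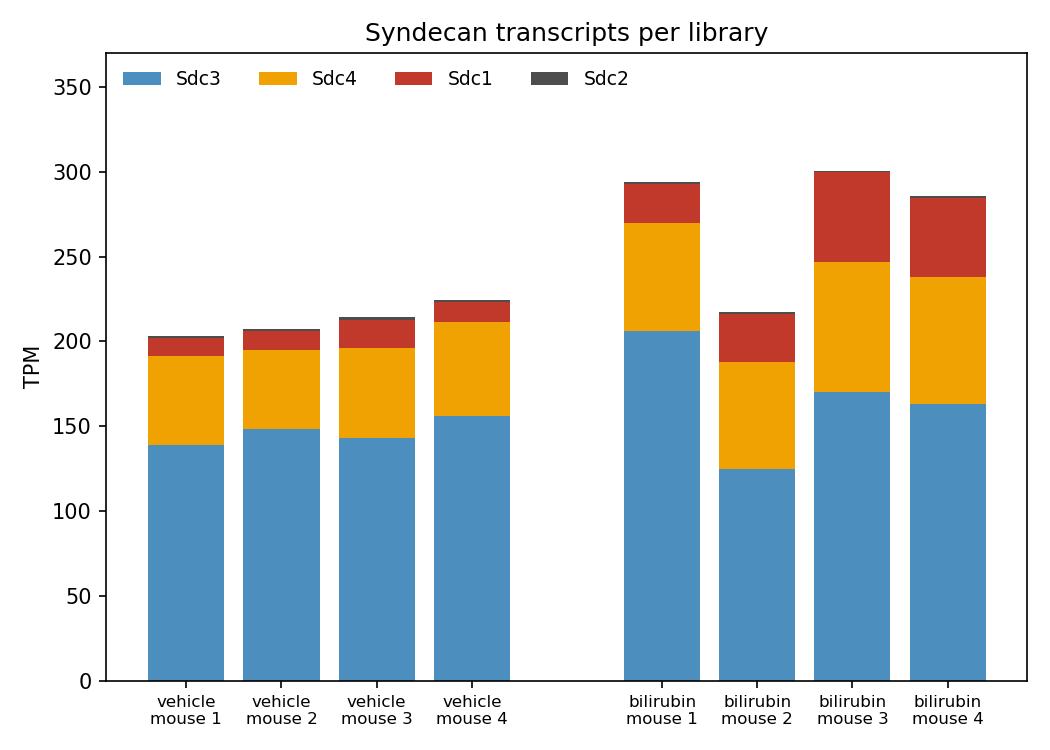
TPM (y axis, from 0) of the 4 syndecans, stacked, in each of the 8 libraries (x axis). The *Sdc3* block is the tallest in every library, the *Sdc1* block is taller in all 4 bilirubin cultures, and the summed height runs from 203 to 225 with vehicle and from 218 to 301 with bilirubin.

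The 3 syndecans differ in their outer parts and share their inner ends, and the coding sequence of that shared stretch is given to show what the genes that rose have in common with *Sdc3*, which did not pass. In the GRCm39 reference, which is of strain C57BL/6J and not Balb/CJ, the longest run of residues that all 3 proteins have in common is 11 residues, encoded by the capitals below with 2 further codons on each side in lower case.
Sdc1: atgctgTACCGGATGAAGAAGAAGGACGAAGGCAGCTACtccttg
Sdc3: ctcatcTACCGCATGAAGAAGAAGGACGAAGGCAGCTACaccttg
Sdc4: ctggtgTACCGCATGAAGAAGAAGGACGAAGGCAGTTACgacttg
The run covers residues 277 to 287 of 311 in *Sdc1*, 409 to 419 of 442 in *Sdc3* and 170 to 180 of 198 in *Sdc4*. It lies next to the membrane, in the first conserved region of the syndecan tail. The last 12 codons end in the 4 that encode the PDZ-binding end of every syndecan, shown in capitals.
Sdc1: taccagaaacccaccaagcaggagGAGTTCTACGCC
Sdc3: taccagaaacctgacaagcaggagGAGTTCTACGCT
Sdc4: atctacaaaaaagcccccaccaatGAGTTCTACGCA

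Genes for proteins that bind syndecan tails or act below them were read from a list of 18, of which 16 had enough counts. Of these, 2 rose and 0 fell by edgeR's test (1 fell at an unadjusted p under 0.05, and 0 by DESeq2 or limma-voom). *Src*, the kinase that phosphorylates syndecan tails, rose from 8.98 ± 1.101 to 23.6 ± 4.18 CPM (SD, n = 4), a log2 fold change of 1.39 (SE 0.0869, adjusted p = 7.58e-05). *Tiam1*, a Rac exchange factor that binds syndecan-1 through its PDZ domain, rose from 65.5 ± 7.70 to 84.3 ± 10.1 CPM (log2 fold change 0.36, adjusted p = 5.88e-04). *Tiam1* did not pass without the mouse as a block (adjusted p = 0.0586). The other 14 did not pass, and the median of the 16 was 0.03.

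Osteopontin, encoded by *Spp1* (chr5:104582165-104589235, plus strand), is a secreted phosphoprotein that binds integrins and CD44. In the same order of mice, *Spp1* read 3708, 4064, 3659.8 and 3517 CPM with vehicle and 2020.2, 3076, 2367 and 2507 CPM with bilirubin. It was lower with bilirubin in all 4 mice, without overlap, and the fall was largest in mouse 1 and smallest in mouse 2. The log2 fold change was -0.60 (SE 0.0691, 95% interval -0.76 to -0.44) with an adjusted p of 0.00154 in edgeR's test. A same-strand gene model of unsettled status, *Gm42793*, overlaps *Spp1*, so reads of the 2 cannot be fully told apart. *Gm42793* took a mean of 159.8 counts per library, against 70209 to 176311 for *Spp1*. *Spp1* is also known from osteoclasts. Of 8 osteoclast markers, 6 were tested, *Acp5*, *Ctsk* and *Dcstamp* rose, *Itgb3* fell, and *Calcr* and *Oscar* were at 0 in all libraries. *Atp6v0d2* and *Ocstamp* had log2 fold changes of -0.11 and -0.27 and did not pass edgeR's test (adjusted p = 0.605 and 0.811). *Ctsk* went from 25.9 to 69.7 mean CPM and *Atp6v0d2* from 53.3 to 50.1. The list summed to 85.1 to 107 CPM with vehicle and 118 to 163 CPM with bilirubin, and its part in the fall of *Spp1* was not tested.

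*Gpnmb* (chr6:49013426-49047863, plus strand) encodes a lysosomal and surface glycoprotein that binds syndecan-4 and integrins. It read 8553, 8234, 8344 and 8851 CPM with vehicle and 8855, 8951, 8013 and 9536 CPM with bilirubin. The groups overlapped and mouse 3 went down where the other 3 went up. The log2 fold change was 0.05 (SE 0.0372, adjusted p = 0.470) and its 95% interval ran from -0.03 to 0.14.

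These 2 RNAs headed the 10 genes on the per-length scale, about level with vehicle and apart with bilirubin. With vehicle, *Spp1* stood at 4693 ± 289 TPM and *Gpnmb* at 4679 ± 307 TPM (SD, n = 4), with overlapping ranges. With bilirubin, *Gpnmb* stood at 4668 ± 352 TPM and *Spp1* at 3024 ± 455 TPM, and *Gpnmb* was the higher in every library. Below them came *Cd44* at 299 ± 5.60 TPM, *Ecm1* at 199.6 ± 4.17, *Sdc3* at 146 ± 7.32, *Tgfbi* at 106 ± 3.13, *Sdc4* at 52.0 ± 3.58, *Sdc1* at 12.5 ± 2.74, *Fn1* at 3.91 ± 0.573 and *Vcan* at 0.206 ± 0.0544 TPM with vehicle. With vehicle no neighbours in this order overlapped other than *Spp1* and *Gpnmb*. With bilirubin the ranges of *Sdc3* and *Tgfbi* overlapped, and so did those of *Fn1* and *Vcan*, though *Fn1* was the higher of this pair in each library. The overlap of *Fn1* and *Vcan* came from mouse 3, where *Vcan* read 2.32 TPM, against 0.895 to 1.20 TPM in the other mice. In that culture 48.3% of the *Vcan* TPM was on a transcript of 294 bases that took 4.09 counts.

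Osteopontin, fibronectin, TGFBI and GPNMB each carry the codons for arginine, glycine and aspartate, the triplet that integrins bind in osteopontin and fibronectin. They are shown, with the triplet's codons in capitals and 3 codons on each side, because some of the integrins described next, those with the alpha v chain among them, bind it. The letters are from GRCm39 and codons are counted from the start codon of each gene's most abundant transcript.
Spp1, codon 144 of 294: cccaacggcCGAGGTGATagcttggct
Fn1, codon 1523 of 2271: gtcactggcCGTGGGGACagtccagca
Tgfbi, codon 642 of 683: ccacaagaaCGAGGAGATgagctggca
Gpnmb, codon 64 of 574: gtgtggaggAGGGGAGACggcaggtgg
*Fn1* and *Gpnmb* each had a further such triplet, at codons 1975 and 558. The transcripts of *Vcan*, *Ecm1* and *Cd44* examined had none.

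Of 11 integrin subunits that bind these ligands, 9 were tested, of which 4 fell and 1 rose by edgeR's test. *Itgav*, the alpha v chain shared by the osteopontin and vitronectin receptors, read 440, 439, 417 and 415 CPM with vehicle and 266, 328, 270.3 and 277 CPM with bilirubin. It was lower in all 4 mice without overlap, with a log2 fold change of -0.59 (SE 0.0486, adjusted p = 2.94e-04). *Itgb3*, a partner of the alpha v chain, fell from 8.78 ± 1.56 to 5.86 ± 1.00 CPM (log2 fold change -0.58, SE 0.139, adjusted p = 0.0415). *Itgb7*, a beta chain of lymphocyte homing receptors, was the subunit that rose, from 55.5 ± 9.81 to 73.1 ± 14.95 CPM (log2 fold change 0.39, adjusted p = 0.00238). *Itgb3* no longer passed without mouse 2 or 3 (adjusted p = 0.125 and 0.247). Neither *Itgb3* nor *Itgb7* passed without the mouse as a block (adjusted p = 0.0548 and 0.202). With transcript length as an offset in the edgeR model, *Itgb3* did not pass either (adjusted p = 0.0919). The median of the 9 subunits was -0.13.

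Fibronectin, encoded by *Fn1* (chr1:71624673-71692419, minus strand), is the main provisional matrix glycoprotein and was scarce here, with 405 to 739 counts per library. *Fn1* read 9.99, 14.4, 16.9 and 16.1 CPM with vehicle and 11.7, 11.4, 13.8 and 11.3 CPM with bilirubin. The groups overlapped because the vehicle culture of mouse 1 was the lowest of all 8, and 3 of the 4 mice went down. The log2 fold change of -0.24 (SE 0.112, 95% interval -0.50 to 0.02) did not pass edgeR's test (adjusted p = 0.279). On the TPM scale the same gene read 4.16, 3.62, 4.59 and 3.29 with vehicle and 2.44, 2.54, 2.76 and 2.19 with bilirubin, lower in 4 of 4 mice and without overlap. The 2 scales part because TPM divides by the effective length of the transcripts to which reads were assigned, and that length was 3785 bases in the vehicle culture of mouse 1, 5723 to 7640 bases in the other vehicle cultures and 6596 to 7599 bases with bilirubin. With that length as an offset in the edgeR model the log2 fold change was -0.61 (adjusted p = 0.0108), and without mouse 1 it was -0.39 (adjusted p = 0.00412).

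**Figure D3:**
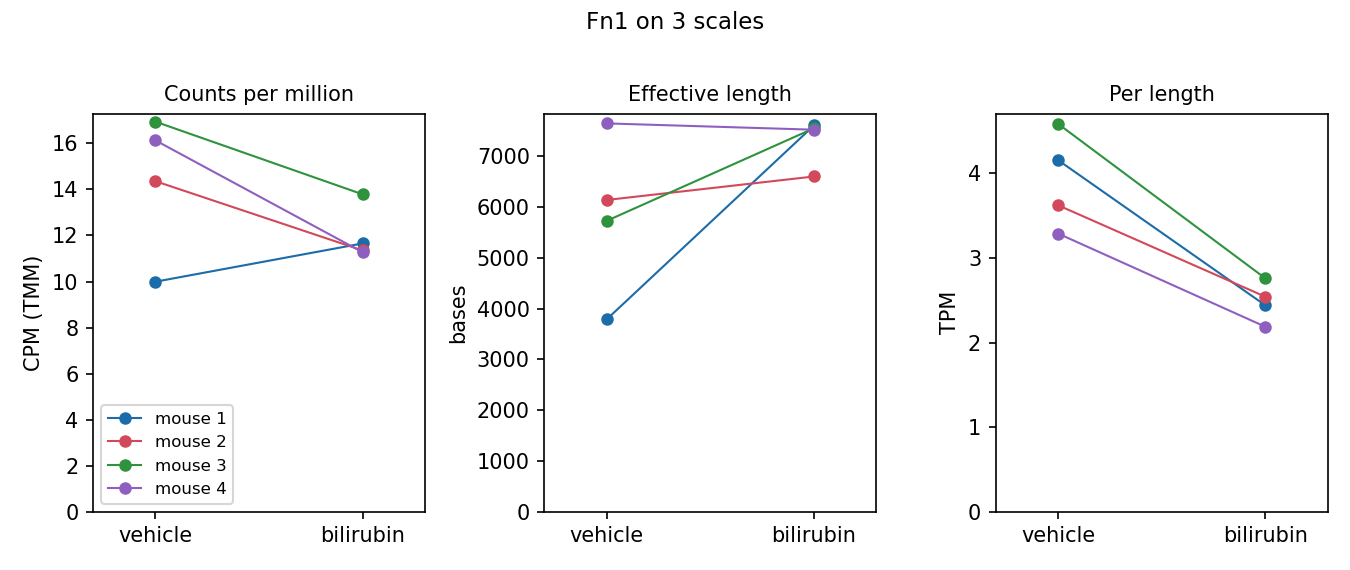
*Fn1* in the vehicle and bilirubin cultures (x axis), as CPM, as the effective length of its transcripts in bases and as TPM (y axes, from 0), 1 line per mouse. Mouse 1 is the line that rises in CPM and whose length goes from 3785 to 7599 bases, and all 4 lines fall in TPM.

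The low counts of *Fn1* were spread over several transcripts. Transcripts with the extra domain A exon (270 bases, chr1:71642819-71643088), which is typical of cellular rather than plasma fibronectin, held 12.9% ± 7.42 of the *Fn1* TPM with vehicle and 23.1% ± 9.82 with bilirubin (SD, n = 4). That share was higher with bilirubin in 4 of 4 mice, and the exact two-sided sign-flip permutation test gave p = 0.125, the smallest that 4 pairs allow. These transcripts rested on 36.9 to 173 counts per library. Transcripts with the extra domain B exon (273 bases) held 5.88% ± 3.41 and 5.53% ± 6.57. Fibroblast and stromal markers, which would mark another source of fibronectin, summed to 5.72 to 15.4 CPM with vehicle and 6.47 to 13.4 CPM with bilirubin over 10 genes, with *Lum* at 0 in all libraries and 0 of the 5 tested genes past the threshold in edgeR's test (2 were lower at an unadjusted p under 0.05, and 0 passed by DESeq2 or limma-voom). Their part in the values of *Fn1* was not tested.

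TGFBI, encoded by *Tgfbi* (chr13:56757336-56787375, plus strand), is a secreted adhesion protein induced by TGF-beta. *Tgfbi* read 169.9, 167, 177 and 177 CPM with vehicle and 199.6, 214, 244 and 225 CPM with bilirubin. It was higher in all 4 mice without overlap, by a log2 fold change of 0.35 (SE 0.0419, adjusted p = 0.00185). *Ecm1* (chr3:95640761-95646943, minus strand) encodes a secreted glycoprotein that binds other matrix proteins and matrix metalloproteinase 9. It read 167, 183, 173 and 160.3 CPM with vehicle and 180.2, 223, 206 and 200.3 CPM with bilirubin. All 4 mice went up, but the groups overlapped, since the bilirubin culture of mouse 1 was below the vehicle culture of mouse 2. Its log2 fold change of 0.24 (SE 0.0417) passed edgeR's test with an adjusted p of 0.0105, and it no longer passed without mouse 2, 3 or 4 (adjusted p = 0.0664, 0.0952 and 0.0852) or without the mouse as a block in the model (adjusted p = 0.0543).

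Versican, encoded by *Vcan* (chr13:89803431-89890814, minus strand), is a large chondroitin sulfate proteoglycan known as a product of monocytes and tumor-associated macrophages. *Vcan* read 0.673, 1.46, 0.940 and 0.894 CPM with vehicle and 4.17, 4.07, 6.08 and 4.40 CPM with bilirubin, from 32 to 55 and 145 to 244 counts per library. Every bilirubin culture lay above every vehicle culture. The log2 fold change of 2.26 (SE 0.227, 95% interval 1.74 to 2.78) passed edgeR's test with an adjusted p of 7.51e-04 and was the largest of the 10 genes, while its level stayed the lowest of them on the TPM scale in both groups. The 5 monocyte markers summed to 2.93 to 3.79 CPM with vehicle and 2.30 to 5.09 CPM with bilirubin. Most of that was *Ccr2*, which did not pass the test (log2 fold change -0.15, adjusted p = 0.750), and *Fcnb* was at 0 in all libraries. The neutrophil list summed to 11.1 to 13.7 CPM and 19.9 to 32.4 CPM, nearly all of it *S100a8*, which rose. *Ly6g* and *Camp* were at 0 with vehicle and averaged 0.0187 and 0.0278 CPM with bilirubin. *S100a9*, *Elane*, *Mpo*, *Ltf* and *Ngp* each averaged at most 0.382 CPM in a group. Of these, *Elane* averaged lower with bilirubin and the others higher. The part of these lists in the rise of *Vcan* was not tested.

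*Vcan* transcripts differ by 2 large exons that carry the chondroitin sulfate chains. The longer of these, the GAG-beta exon of 5217 bases, was in transcripts that held 83.0% ± 34.1 of the *Vcan* TPM with vehicle and 63.8% ± 18.4 with bilirubin. The GAG-alpha exon of 2880 bases was in 14.97% ± 10.9 and 8.40% ± 3.31. The most abundant transcript had the first and lacked the second, the make-up called V1, and took 68.0% ± 29.5 and 55.4% ± 15.7. These shares rested on as few as 21.1 and 5.17 counts in a library, and the exact two-sided sign-flip permutation test gave p = 0.500 for each exon. As shares of estimated counts, the difference of the GAG-beta share turned from -19.1 to 4.69 percentage points and that of the V1 transcript from -12.6 to 9.40. Leaving out a mouse moved the GAG-beta difference to between -42.8 (without mouse 1) and -6.08 percentage points (without mouse 3), and the V1 difference to between -32.0 (without mouse 1) and -5.35 (without mouse 3). The GAG-alpha difference was -6.57 percentage points and ran from -10.7 (without mouse 1) to -0.726 (without mouse 3).

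**Figure D4:**
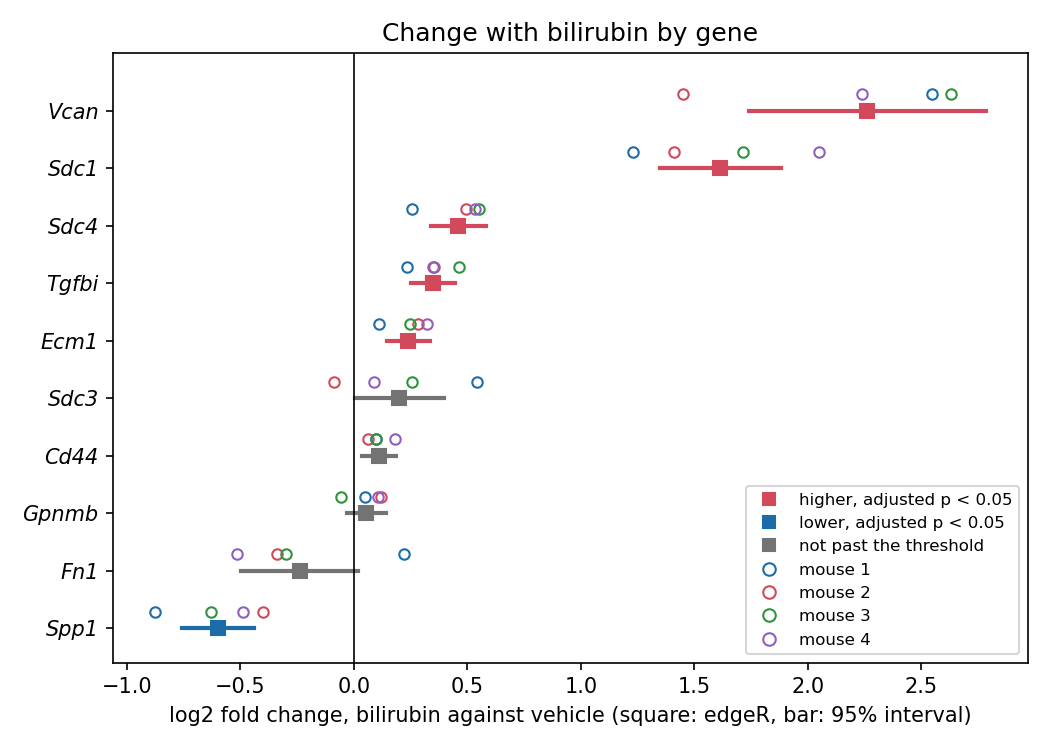
Log2 fold change of bilirubin against vehicle (x axis) for the 10 genes (y axis), as edgeR's estimate with its 95% interval and as 1 open circle per mouse. *Vcan* at 2.26 and *Sdc1* at 1.61 stand to the right of the other 8, *Spp1* at -0.60 is the gene to the left that passed, and the circles of *Fn1*, *Gpnmb* and *Sdc3* lie on both sides of 0.

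CD44, encoded by *Cd44* (chr2:102641486-102732010, minus strand), is the main surface receptor for hyaluronan and also binds osteopontin. *Cd44* read 624, 617, 636 and 628 CPM with vehicle and 668, 645, 681 and 712 CPM with bilirubin. As TPM the ranges overlapped, at 291 to 303 with vehicle and 290 to 323 with bilirubin. Mouse 2 went from 291.14 to 290.15 TPM. In CPM the ranges did not overlap and all 4 mice went up. The change was small, with a log2 fold change of 0.11 (SE 0.0329, 95% interval 0.03 to 0.19), and did not pass edgeR's test over all genes (adjusted p = 0.0913), though it did without mouse 1 (adjusted p = 0.0474). Its RNA was divided between a transcript without variable exons (Cd44-203, 71.3% ± 0.911 of the TPM with vehicle and 70.7% ± 1.39 with bilirubin) and a longer one with several variable exons (Cd44-207, 27.0% ± 0.739 and 27.7% ± 1.09). Those transcripts are also of unequal length, 2848 and 5045 bases, so use of the variable exons and use of a longer untranslated end cannot be told apart from these shares. The difference between groups in the share of variable-exon transcripts was 0.596 percentage points (exact two-sided sign-flip p = 1.00). That share was higher with bilirubin in mouse 1 and lower in the other 3, and without mouse 1 the difference was -0.439 percentage points.

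For the other genes, the 2 main *Gpnmb* transcripts held 53.9% ± 2.97 and 39.6% ± 2.43 of its TPM with vehicle and 54.6% ± 1.73 and 39.6% ± 1.08 with bilirubin. The main *Spp1* transcript held 93.5% ± 0.103 and 93.8% ± 0.333. The larger part of the *Sdc1* TPM, 59.8% ± 7.29 with vehicle and 52.1% ± 2.30 with bilirubin, was assigned to a transcript of 2311 bases that the annotation used here does not list. Its share was lower with bilirubin in 4 of 4 mice (exact two-sided sign-flip p = 0.125). The main annotated *Sdc1* transcript, whose codons and start site are shown, held 39.8% ± 7.20 with vehicle and 46.8% ± 1.06 with bilirubin, higher in 4 of 4 mice (exact two-sided sign-flip p = 0.125). Without mouse 1, whose vehicle share was 29.5%, that difference went from 7.01 to 3.19 percentage points. Of 32 such tests, 3 reached the smallest possible p, and none can pass 0.05 with 4 pairs. Those 3 are the pair of *Sdc1* shares, which mirror each other, and the extra domain A share of *Fn1*. The 32 are not separate tests. The main *Sdc4* transcript held 100% in every library, and the extra domain B and GAG-alpha tests each repeat that of a single transcript.

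The stretches before the start sites of the 2 genes that rose most are given because both rose in all 4 mice. They are the 250 bases upstream of the gene's most abundant annotated transcript, read on the gene's strand, with matches to the letters of 5 motifs in capitals.
Sdc1, chr12:8821034-8821283, plus strand: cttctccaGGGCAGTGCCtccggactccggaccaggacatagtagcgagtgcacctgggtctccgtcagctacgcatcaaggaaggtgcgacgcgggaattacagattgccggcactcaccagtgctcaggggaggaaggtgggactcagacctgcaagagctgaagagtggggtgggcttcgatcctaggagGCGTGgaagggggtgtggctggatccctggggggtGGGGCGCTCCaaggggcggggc
Vcan, chr13:89890815-89891064, minus strand: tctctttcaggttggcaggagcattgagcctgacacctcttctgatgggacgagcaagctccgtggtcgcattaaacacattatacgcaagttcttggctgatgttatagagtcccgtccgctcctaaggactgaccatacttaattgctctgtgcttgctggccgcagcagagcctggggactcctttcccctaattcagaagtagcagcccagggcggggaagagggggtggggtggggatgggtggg
Both strands were searched for GGGNNNNNCC (NF-kB), TGANTCA (AP-1), GCGTG (xenobiotic response element), TGANNNNGC (antioxidant response element) and CACGTG (a CLEAR box). *Sdc1* had 2 NF-kB matches, the nearer 13 to 22 bases before the start of its annotated transcript, and 1 GCGTG. *Vcan* had none of the 5. The *Sdc1* window lies inside the gene, past its first base at 8820854, and that of *Sdc4* also lies inside its gene. More of the *Sdc1* TPM went to an unlisted transcript, whose start is not known here. Of 13704 such windows of tested genes, 52.3% held the NF-kB letters, 5.2% AP-1, 38.6% GCGTG, 35.3% the antioxidant letters and 7.2% CACGTG, so the matches are common. Of the other 8 genes, *Sdc4* had the NF-kB letters, GCGTG and the antioxidant letters, *Tgfbi* and *Sdc3* the NF-kB letters and GCGTG, *Cd44* the NF-kB and antioxidant letters, *Fn1* the NF-kB letters, and *Spp1*, *Gpnmb* and *Ecm1* none. The NF-kB letters were thus in 3 of the 6 genes that passed the test and in 3 of the 4 that did not.

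The surroundings of the 10 genes were read from 7 lists of 185 genes in all. Of 115 tested, 9 rose and 16 fell by edgeR's test (21.7%, against 7.53% of all tested genes). The lists were also chosen with earlier results of these data known, so this contrast does not test them as sets. Of 51 other matrix glycoproteins 27 had enough counts, and 3 fell and 0 rose by edgeR's test (1 rose at an unadjusted p under 0.05, and 0 by DESeq2 or limma-voom). *Thbs1*, the thrombospondin-1 gene, whose protein activates latent TGF-beta and binds CD36 and CD47, read 39.1, 49.2, 44.4 and 32.9 CPM with vehicle and 17.5, 22.1, 16.1 and 12.9 CPM with bilirubin. It was lower in all 4 mice without overlap, by a log2 fold change of -1.28 (SE 0.0643, adjusted p = 3.06e-05). *Lama3*, a laminin alpha chain, went from 20.6 ± 1.36 to 15.2 ± 3.95 CPM (log2 fold change -0.47, adjusted p = 0.0247). *Lama3* did not pass without mouse 2, 3 or 4 (adjusted p = 0.101, 0.170 and 0.140) or without the block (adjusted p = 0.114). With the length offset in the edgeR model it did not pass either (adjusted p = 0.0684). Of 27 other proteoglycans 9 were tested, and 0 passed by edgeR's test. At an unadjusted p under 0.05 there were 2 higher and 1 lower, DESeq2 called 0, and limma-voom called 1 higher.

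Of 30 tested genes for enzymes that build or cut glycosaminoglycan chains, 6 fell and 1 rose by edgeR's test, and the median log2 fold change was -0.06. *Chst3*, which sulfates chondroitin, fell from 16.8 ± 1.42 to 11.6 ± 1.49 CPM (log2 fold change -0.53, adjusted p = 0.00191). *Hpse*, the heparanase that cuts heparan sulfate, fell from 145 ± 8.20 to 107 ± 9.96 CPM (log2 fold change -0.44, adjusted p = 0.00184). *Ust*, which sulfates uronic acid in chondroitin and dermatan sulfate, rose from 8.57 ± 1.80 to 14.98 ± 2.35 CPM (log2 fold change 0.81, SE 0.122, adjusted p = 0.00502). Among 9 tested hyaluronan genes 2 rose and 0 fell by edgeR's test (2 were lower at an unadjusted p under 0.05, and 0 by DESeq2 or limma-voom). *Layn*, a hyaluronan receptor, had a log2 fold change of 0.51 (adjusted p = 0.0239), and *Ugdh*, which makes the UDP-glucuronate that hyaluronan and other chains need, 0.32 (adjusted p = 0.00475). *Layn* did not pass without mouse 2, 3 or 4 (adjusted p = 0.123, 0.136 and 0.117) or without the block (adjusted p = 0.115). With the length offset in the edgeR model *Layn* did not pass either (adjusted p = 0.157). *Ust* and *Ugdh* did not pass without mouse 3 (adjusted p = 0.0596 and 0.0506).

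A list of sheddases, other proteases and secretase subunits moved both ways, with 3 up and 3 down of 15 tested. Not all of these are known to cut syndecans or CD44. *Mmp14*, a membrane metalloproteinase, rose from 20.0 ± 1.50 to 115 ± 38.8 CPM, a log2 fold change of 2.48 (SE 0.145, adjusted p = 5.51e-05). *Adam17*, a general sheddase, rose from 280.2 ± 10.8 to 371 ± 24.9 CPM (log2 fold change 0.41, adjusted p = 6.04e-04). *Mmp9*, named after its values were seen, was the remaining gene that rose, from 0.262 ± 0.140 to 14.5 ± 7.29 CPM (adjusted p = 3.84e-05). *Plau*, the urokinase gene, fell from 1392 ± 109 to 777 ± 206 CPM (log2 fold change -0.88, SE 0.119, adjusted p = 0.00308), and *Adam8* from 2551 ± 68.5 to 2173 ± 273 CPM (log2 fold change -0.24, adjusted p = 0.0352). *Adam8* did not pass without mouse 2, 3 or 4 (adjusted p = 0.0561, 0.168 and 0.119) or without the block (adjusted p = 0.139). In all, *Adam8* passed under 7 of 12 other settings.

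**Figure D5:**
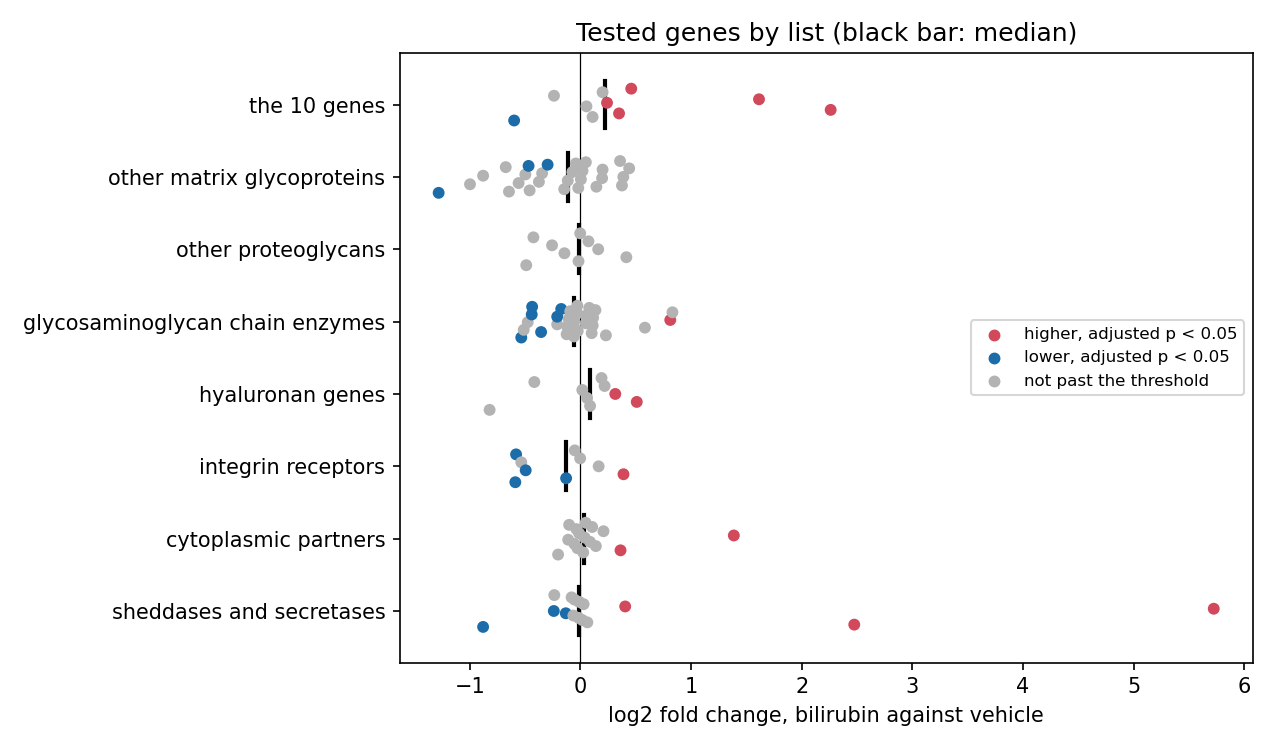
Log2 fold change of bilirubin against vehicle (x axis) for each tested gene of the 7 lists and for the 10 genes described (y axis), coloured by edgeR's test, with a black bar at the median of each row. The rows have medians between -0.13 and 0.22, and the coloured points to the right of 1 are *Vcan*, *Sdc1*, *Src*, *Mmp14* and *Mmp9*.

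For each of the 6 genes that passed, the 2 tested genes (mean log2 CPM at least 1) whose log2 CPM followed it most closely over the 8 libraries were named, with Pearson's r as a description. The libraries share the treatment, so genes that changed with it correlate. *Sdc1* was followed by *Nab1* (r = 0.994) and *Myo10* (r = 0.988), and *Sdc4* by *Aldh3b1* (r = 0.995) and *Ptpn22* (r = 0.993). *Vcan* was followed by *Rras* (r = 0.989) and *Ncf4* (r = 0.985), *Tgfbi* by *Ehd1* (r = 0.987) and *Ptges* (r = 0.986), and *Ecm1* by *Slc7a11* (r = 0.989) and *Hdlbp* (r = 0.985). *Spp1* was followed by *Ctsd* (r = 0.988), the cathepsin D gene, which fell from 13858 ± 696 to 10883 ± 1010.4 CPM (log2 fold change -0.35, adjusted p = 0.00192), and by *Galns* (r = 0.983), which encodes a lysosomal sulfatase that degrades keratan and chondroitin sulfate.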

How the data were processed

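The authors sequenced poly-A RNA and processed the reads with the nf-core RNA-seq pipeline. Per the labels and the study's methods, reads were trimmed with Trim Galore 0.6.7 and cutadapt 3.4, aligned with STAR 2.7.9a to GRCm39 and quantified with Salmon 1.10.1, and transcripts were summed per gene with tximport. The authors deposited 1 table of estimated counts (expected counts) per gene, unscaled, of which 88.45% were whole numbers. They also deposited values for 142434 transcripts in each library, as estimated counts, effective length and TPM. TPM is scaled by the authors' Salmon run for transcript length and depth, and it was summed here per gene. Whether strand was used in quantification is not given in the sources used here.

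Counts were rounded to whole numbers and analysed in R 4.3.3 with edgeR 4.0.16 (TMM scaling, filterByExpr with at least 10 counts and 15 in total, mouse and treatment in the model, quasi-likelihood test, Benjamini-Hochberg adjustment over 13722 genes, threshold 0.05). The labels number the cultures 1 to 4 in each group, and the study took them from 4 mice, so cultures of the same number were paired as 1 mouse. Deviations of the cultures of a mouse from their group means correlated by 0.108, 0.134, 0.108 and -0.0053 in mice 1 to 4, and by at most 0.0751 between mice. No label says that cultures of a group differ in anything but their number. Other settings tried were a model without the mouse, limma 3.58.1 with voom weights, DESeq2 1.42.0, DESeq2 size factors, library size alone, no filter, CPM above 1 in 4 libraries, a transcript length offset and each mouse left out in turn. Levels were also taken as CPM per length and shares also as shares of estimated counts. The procedure was tested on simulated data.

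The 10 genes, the 7 pathway lists, the 10 marker lists and the tests were chosen with earlier results of these data known. Named genes are the 10, the up to 2 genes per list and direction with the largest change among those that passed (mean log2 CPM 1 or more), and the 2 genes most correlated with each of the 10 that passed. Transcript models, start sites and sequences are from GRCm39 with GENCODE M39. A *Sdc1* transcript of the deposited tables was not in that annotation and its exons were not analysed here. Raw reads and the other experiments of the study were not analysed here. The results of 3 marker genes are not reported here, so their lists are given by their other genes.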

Additional observations from a re-analysis of the deposited data

Results flagged for a closer look

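In the bilirubin group, mouse 3 stood apart for 2 of the 10 genes. Its *Fn1* value was 13.8 CPM, with the other 3 bilirubin cultures between 11.3 and 11.7 CPM, and its *Vcan* value was 6.08 CPM, with the others between 4.07 and 4.40 CPM. The gap to the nearest culture was 0.848 and 0.834 of the group's whole range, past the 95% critical value of Dixon's test for 4 samples. Of 30 groups of 4 values checked, 2 were past it, and chance alone flags about 1 in 20. Without mouse 3 the log2 fold change of *Vcan* stayed past the threshold of edgeR's test, and that of *Fn1* did not pass it.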

How the results depend on the processing

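*Spp1*, *Vcan*, *Tgfbi*, *Sdc1* and *Sdc4* passed under all 12 alternatives with the same direction, and *Gpnmb* under none. *Ecm1* passed under 8, *Fn1* under 2, and *Cd44* (without mouse 1, adjusted p = 0.0474) and *Sdc3* (no filter, adjusted p = 0.00142) under 1 each. The cause was not tested. Without the mouse as a block in the paired model, 4 of the 10 genes rose and 1 fell, 458 genes rose and 228 fell in all, and 6 list genes rose and 10 fell. With the length offset, 372 genes rose and 206 fell, 2 of the 10 genes fell, and 9 list genes fell. With no filter on low counts, 774 genes fell and 17 list genes rose. Library size alone called 527 genes higher and 556 lower, against 616 and 417 with TMM. Leaving out each mouse gave 265 to 1026 genes higher and 112 to 884 lower, 4 to 6 of the 10 genes higher and 1 to 2 lower, and 6 to 17 list genes higher and 7 to 25 lower. The highest counts were without mouse 1, and the lowest, for all genes, without mouse 3. The order of levels was the same as CPM per length. Depth limits *Vcan* and *Fn1*, whose transcript shares rest on few counts.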
